A study of Mus musculus with 24 samples.

Results

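Interferon-stimulated effector genes encode the proteins that act at the end of the interferon response. In dispersed mouse islet cells 49 such genes were followed, out of 41549 genes in the deposited mRNA-seq table. They were picked by symbol and function, and fall into 10 families: OAS enzymes, IFIT proteins, the ISG15 system, IRG and GBP GTPases, Mx and Ifi44, membrane effectors, nucleotide and lipid enzymes, sensors and effectors of nucleic acids, PARP proteins with DTX3L, and a last group of other effectors. All 49 were in the table and all 49 had enough counts to be tested. The choice was made with earlier results of these data known. Shares set below beside those of all genes are therefore descriptions.

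The cells came from wild type C57BL/6NRj mice of both sexes, 12 to 14 weeks old. After dispersion they were transfected with 50 pmol of an antisense oligonucleotide (ASO), either a control (Ctr) or αGlu, which inhibits the tRNA fragment 5′tRF Glu(CTC). They were then exposed to 0.5 mM palmitate (PA) bound to bovine serum albumin, or to 0.75% of the albumin alone (BSA), in medium with 1% serum. Each of the groups Ctr BSA, αGlu BSA, Ctr PA and αGlu PA held 6 libraries, named S1 to S24 by the study, with 3 of every group in each of 2 batches. All groups were transfected, so a response to transfection itself has no untransfected group to be read against. By the study's methods, the groups of 1 replicate shared an animal, but no label says which libraries those are. The groups were therefore compared unpaired, and an overlap between groups also holds any difference between animals. The duration of PA for these libraries is not given in the sources used here, nor is what a batch is. In bulk libraries of islet cells, fewer cells of a type and less RNA per cell cannot be told apart.

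Type I interferons bind the receptor IFNAR, whose kinases JAK1 and TYK2 switch on a transcription factor complex that holds STAT2 and IRF9. It binds the interferon-stimulated response element (ISRE) in front of its target genes, while interferon gamma acts at the GAS element. The targets limit viruses at many steps: OAS enzymes and PKR (Eif2ak2) are switched on by double-stranded RNA, IFIT proteins bind foreign RNA ends, GTPases attack vacuoles and capsids, and ISG15 is conjugated to other proteins. Interferon-stimulated genes are also known from islets in the early course of type 1 diabetes.

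The agent that separates the groups is shown first, with the 21-base target sequence in the tRNA fragment, which is itself longer. Capitals in the target mark the bases to which the ASO is complementary.
αGlu ASO: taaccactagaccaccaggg
target: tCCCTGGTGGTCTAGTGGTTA

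RefSeq promoters (mouse build GRCm38.p6, 250 bases before to 50 after the start) were available for 38 of the 49 genes. The core of the ISRE, searched on both strands as GAAA, any 2 bases and GAAA, was found in 21 of these 38 genes (55.3%), against 3.99% of 27025 genes with a promoter. The GAS letters TTC, any 3 bases and GAA, a pattern that is its own reverse complement, were in 10 of 38 (26.3%), against 9.55%. A match is a string of letters and not evidence of binding. The 250 bases upstream of Isg15 and Irgm2 are shown because these genes have the most overlapping cores (3) and the smallest p under αGlu, respectively, with ISRE cores in capitals. The first lies at chr4:156200819-156201068 on the minus strand and the second at chr11:58214727-58214976 on the plus strand, in front of a RefSeq start that GENCODE M21 does not list.
Isg15: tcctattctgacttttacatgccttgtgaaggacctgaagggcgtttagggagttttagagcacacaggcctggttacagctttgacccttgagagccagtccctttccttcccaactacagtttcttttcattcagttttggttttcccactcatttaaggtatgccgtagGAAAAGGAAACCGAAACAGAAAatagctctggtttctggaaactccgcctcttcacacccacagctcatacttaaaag
Irgm2: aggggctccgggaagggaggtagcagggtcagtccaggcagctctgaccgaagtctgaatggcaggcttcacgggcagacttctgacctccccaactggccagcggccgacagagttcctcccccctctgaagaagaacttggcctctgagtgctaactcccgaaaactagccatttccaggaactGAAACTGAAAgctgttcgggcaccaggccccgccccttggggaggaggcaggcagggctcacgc

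The ISRE stretches of 7 more members, whose cores are alike by the search itself, are given with 8 bases on each side. They lie at chr19:34640777-34640802 (Ifit1), chr11:58199514-58199539 (Igtp), chr15:77729027-77729058 (Apol9b) and chr3:142620596-142620621 (Gbp2) on the plus strand. On the minus strand they lie at chr5:120907522-120907553 (Oas1a), chr8:71537579-71537610 (Bst2) and chr11:48871427-48871458 (Irgm1).
Ifit1: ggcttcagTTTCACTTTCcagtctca
Oas1a: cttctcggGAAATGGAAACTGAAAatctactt
Bst2: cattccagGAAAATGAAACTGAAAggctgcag
Irgm1: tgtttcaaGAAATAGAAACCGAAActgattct
Igtp: taggaactGAAACTGAAAgctgttcg
Apol9b: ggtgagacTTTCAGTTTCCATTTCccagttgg
Gbp2: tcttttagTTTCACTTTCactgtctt

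The same 32 bases as in Oas1a were found in front of Oas1g, and the same 32 as in Apol9b in front of Apol9a. Trim25, Adar, Xaf1, Ifi44, Lgals3bp and Oasl2 were among the 17 genes whose RefSeq promoters did not hold the core. These pairs are also hard to separate by reads: 57.6% of the 50-base words in the transcripts of Oas1a occur in Oas1g, 52.3% of those of Apol9b in Apol9a, 51.2% of those of Ifit3 in Ifit3b, and 65.0% of those of Gbp6 in Gm43302. How reads with several matches were assigned is not given in the sources used here, so the values of these genes are uncertain. Exons of Dtx3l and Parp9 overlap on opposite strands, and the library kit keeps the strand.

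Levels were compared between genes only as TPM, which is corrected for length. In Ctr BSA cells Lgals3bp, a secreted glycoprotein that binds galectins, stood at 729 ± 110 TPM (SD, n = 6), above 99.5% of the genes tested. Next in order came Trim25, an E3 ligase for RIG-I and ISG15, with 44.0 ± 5.79 TPM, Adar, which edits adenosine to inosine in double-stranded RNA, with 33.4 ± 3.77 TPM, and Ifi27 with 33.0 ± 6.79 TPM. The last 2 did not differ beyond their spread. Genes often used as sentinels of interferon were low here: Rsad2 (viperin) had 7.52 ± 4.05 TPM, Ifit1 4.90 ± 1.24 TPM, Isg15 2.65 ± 2.35 TPM and Oas2 0.803 ± 0.544 TPM. At the bottom, Oas3, Ifi44, Apol9a and Zbp1 had mean levels from 0.0749 to 0.190 TPM, and Zbp1 drew only 143 reads in all 24 libraries.

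Over the libraries, the effector genes rose and fell largely together. After the mean of each group and batch was removed, the log2 CPM of a gene correlated with the mean of the other 48 at a median r of 0.71 over 24 libraries, and 41 of 49 genes were above 0.5. These points share library, depth and batch, so the value is a description. Rtp4 (0.94), Oas2 (0.91), Apol9a (0.90) and Xaf1 (0.90) followed the others most closely, and Ifi35 (0.07), Ifit2 (0.26), Uba7 (0.27) and Oas1c (0.33) least. The heat map makes plain where the common signal sat: for 40 of 49 genes the highest of all 24 libraries was S2 or S6, both αGlu BSA libraries of batch 1. For 5 more it was S4, an αGlu PA library of batch 1. Neither the correlation nor this count is set beside that of other genes here.

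**Figure D1:**
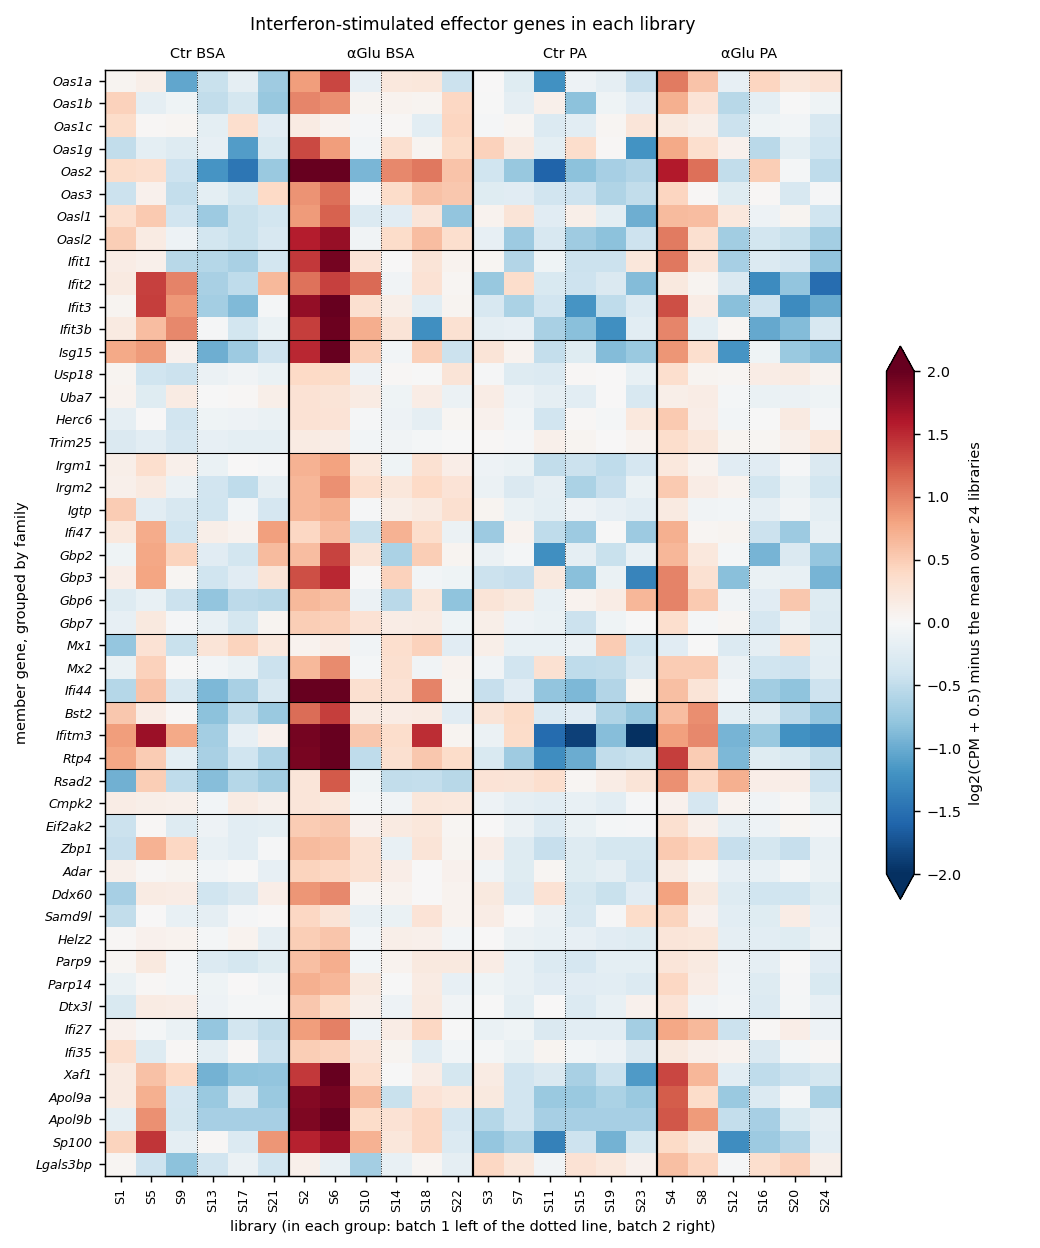
Heat map of the 49 effector genes (rows, by family) in 24 libraries (columns, by group and then batch), coloured by log2(CPM + 0.5) minus the gene's mean over all libraries. The warm columns are S2 and S6 in αGlu BSA and S4 and S8 in αGlu PA, while the third αGlu BSA library of batch 1, S10, is paler.

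Averaged over the 49 genes, the mean log2(CPM + 0.5) was 3.69 in S2 and 3.86 in S6, against 2.88 in S10 of the same group and batch. In batch 2 the αGlu BSA libraries lay between 2.80 and 3.004 and the Ctr BSA libraries between 2.42 and 2.61, without overlap. In batch 1 the Ctr BSA libraries lay between 2.72 and 3.11, so that S10 fell inside their range. In PA, S4 (3.42) and S8 (3.07) were above the Ctr PA libraries of batch 1, which lay between 2.43 and 2.74, and S12 (2.53) was not. The αGlu PA libraries of batch 2 lay between 2.45 and 2.59, overlapping the Ctr PA range of 2.41 to 2.49. Since single libraries carried so much of the signal, the main counts are given below with and without them.

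The first comparison asked what αGlu did in cells not exposed to PA. Here 48 of 49 effector genes had a higher level in αGlu BSA than in Ctr BSA, with a median log2 fold change of 0.49, against 0.00 for all 15916 genes tested. Of the 49, 33 rose at an unadjusted p below 0.05 and 0 fell, where the background of genes raised at that p was 1.14%. With a change above 2-fold at the same p, the threshold used by the study and taken here as a call, 10 effector genes were raised (background 0.145%). Adjusted over all genes, 0 of the 49 passed 0.05 by edgeR's quasi-likelihood test, as did 0 of all genes tested. The smallest adjusted p was 0.114 (Irgm2), while DESeq2 passed 4 (8.16%, beside 0.0377% of all genes raised). All other unadjusted p-values are given here only by their side of 0.05. Apart from Irgm2, Eif2ak2 and Trim25, the adjusted p of every effector gene in this comparison was 0.446 or higher.

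The 3 genes of smallest p changed by less than 2-fold. Irgm2, an IRG GTPase that marks vacuoles for destruction, had 6.02, 7.86 and 9.95 CPM in Ctr BSA (lowest, median and highest library) and 10.4, 11.5 and 16.99 CPM in αGlu BSA. Every αGlu library was above every Ctr library, and the fold change was 1.58 (log2 0.66 ± 0.12 SE, edgeR adjusted p = 0.114). For Eif2ak2, which encodes the RNA-dependent kinase PKR, the values were 24.3, 28.4 and 33.5 CPM against 33.9, 37.8 and 48.1 CPM, again without overlap (1.38-fold, edgeR adjusted p = 0.282). Trim25 moved from 87.3, 95.4 and 97.7 CPM to 104, 108 and 123 CPM (1.19-fold, edgeR adjusted p = 0.282).

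Only Oas1g joined these as a gene whose groups did not overlap, at 0.368, 1.05 and 1.18 CPM against 1.32, 1.91 and 4.19 CPM. These 4 of 49 genes (8.16%) compare with 0.0377% of all genes that were higher without overlap. Without S2 and S6, the unadjusted p of Irgm2, Eif2ak2, Trim25 and Oas1g stayed under 0.05 with log2 fold changes of 0.58, 0.32, 0.18 and 0.94.

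Active enzymes of the OAS family make 2-5A, the second messenger that activates RNase L. Which members are active was not measured here, and GENCODE M21 types Oas1b as a polymorphic pseudogene. All 8 members were higher in αGlu BSA, 6 at an unadjusted p below 0.05 and 3 of them by call. Oas2 went from 0.368, 1.10 and 2.58 CPM to 0.767, 4.25 and 9.44 CPM under αGlu, a 4.06-fold rise (log2 2.02 ± 0.48, edgeR adjusted p = 0.446). The top values were S2 and S6 and the lowest was S10, below the Ctr median. Within batch 2 alone, where no αGlu library overlapped Ctr, the log2 fold change of Oas2 was 2.61. Oas1g rose 2.33-fold and Oas3 3.11-fold, the latter from 33 reads in 6 Ctr libraries to 106. Oas1c, at a log2 fold change of 0.02, did not follow its relatives.

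**Figure D2:**
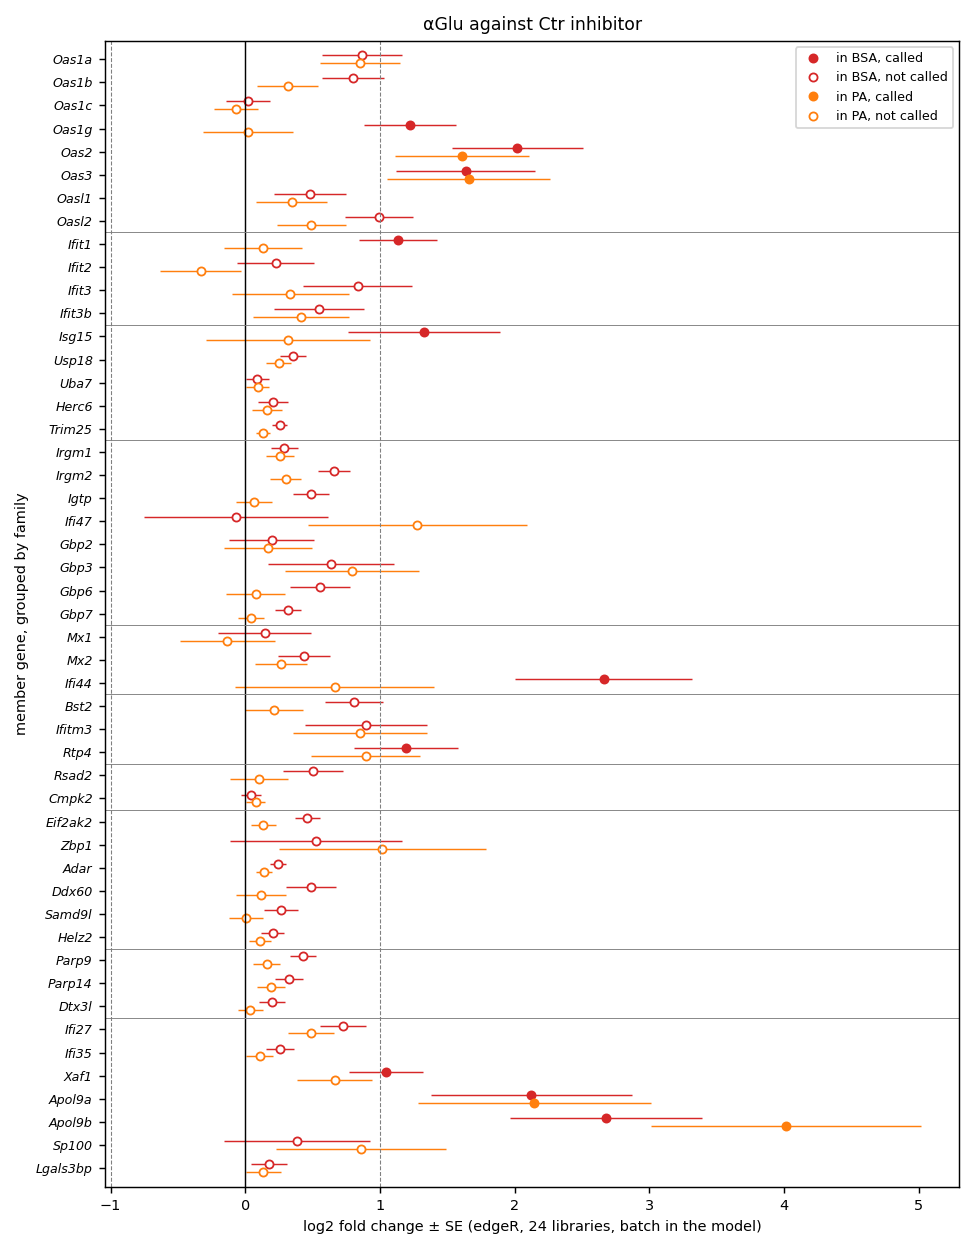
Log2 fold change of αGlu against Ctr for each effector gene, with its SE, in BSA (red) and in PA (orange), over 6 libraries a group. Filled points passed 2-fold with an unadjusted p below 0.05, and nearly all points lie right of 0, those in PA mostly nearer to it.

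Ifi44, a GTP-binding protein of unsettled antiviral action, was near the floor in Ctr BSA with 0, 0.188 and 0.880 CPM. In αGlu BSA it had 0.468, 1.01 and 4.02 CPM, a 6.33-fold rise (log2 2.66 ± 0.66, edgeR adjusted p = 0.446), and it stayed raised without S2 and S6 (4.03-fold, unadjusted p below 0.05). Mx1 and Mx2, only grouped with Ifi44 here, are named for dynamin-like GTPases that trap viral nucleoproteins. GENCODE M21 types Mx2 as a polymorphic pseudogene, and neither protein was measured. Mx2 rose 1.35-fold, and Mx1 did not pass, at a log2 fold change of 0.14.

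Apol9b and Apol9a, a near-identical pair of lipid-binding proteins, gave large folds on few reads. Apol9b drew 42 reads in 6 Ctr BSA libraries, 36 of them in S5, and 198 reads in αGlu BSA. Its levels were 0, 0.0619 and 0.990 CPM against 0.128, 0.539 and 3.10 CPM (log2 2.68 ± 0.71, edgeR adjusted p = 0.446). Apol9a rose 4.36-fold by the same test (log2 2.12 ± 0.75), but without S2 and S6 its unadjusted p was above 0.05.

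Of the IFIT family, which binds RNA lacking host cap marks, all 4 were higher but only Ifit1 passed. Ifit1 went from 3.68, 4.26 and 6.70 CPM to 6.07, 7.37 and 24.1 CPM (2.20-fold, edgeR adjusted p = 0.446). The highest library was S6, and without it the log2 fold change fell from 1.14 to 0.87, under 2-fold. Xaf1, a binding partner of the apoptosis inhibitor XIAP, behaved alike: 1.54, 2.85 and 5.39 CPM against 2.60, 4.16 and 16.2 CPM, 2.06-fold, and a log2 of 0.77 without S6. Rtp4, a receptor transporter protein with antiviral activity, lost its call without S6 as well, from a log2 fold change of 1.19 to 0.93.

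The ISG15 system consists of the modifier Isg15, its activating enzyme Uba7, the ligases Herc6 and Trim25 and the protease Usp18, which also blocks the interferon receptor. Isg15 itself went from 0.0790, 0.528 and 1.54 CPM to 0.341, 1.08 and 4.44 CPM. Its 2.51-fold rise (log2 1.33 ± 0.57) ended as a call when any 1 of the libraries S6, S9, S13 or S18 was left out. Usp18 rose 1.28-fold (log2 0.36 ± 0.10). Uba7 and Herc6 did not pass, with log2 fold changes of 0.09 and 0.21.

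Among membrane effectors, Bst2 (tetherin), which holds budding virions at the cell surface, rose 1.75-fold (log2 0.81 ± 0.21). Ifitm3, which blocks fusion in endosomes, varied between 1.86 and 11.9 CPM within Ctr BSA and between 3.41 and 19.95 CPM in αGlu BSA and did not pass (log2 0.90 ± 0.45). The remaining large family, the IRG and GBP GTPases, had 5 of 8 members raised at an unadjusted p below 0.05: Irgm2, Igtp, Gbp7, Irgm1 and Gbp6. Gbp2, Gbp3 and Ifi47 did not pass, and Ifi47, the gene with the lowest fold change of all 49, had a log2 of -0.07 ± 0.68.

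The sensing effectors Adar, Eif2ak2, Ddx60, Helz2 and Samd9l and all 3 genes of the ADP-ribosylation pair PARP9 and DTX3L with PARP14 also rose, by 1.15-fold to 1.40-fold. Rsad2, which makes a chain-terminating nucleotide, rose 1.42-fold, and its neighbour and partner Cmpk2 had a log2 of 0.04. Of the rest, Ifi27 rose 1.66-fold and Ifi35 1.19-fold. Lgals3bp, the most abundant, did not pass, at 551, 745 and 999 CPM against 612, 882 and 1047 CPM.

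Without S2 and S6, 45 of 49 effector genes were still higher in αGlu BSA, 19 at an unadjusted p below 0.05 (1.02% of all genes), and 4 were called (Oas2, Oas3, Ifi44 and Apol9b, against 0.142% of all genes), with a median log2 fold change of 0.25. Both batches gave a higher value for 40 of the 46 genes that could be fitted in each, or 87.0%, against 24.6% of all genes. The median was 0.60 in batch 1 and 0.27 in batch 2.

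**Figure D3:**
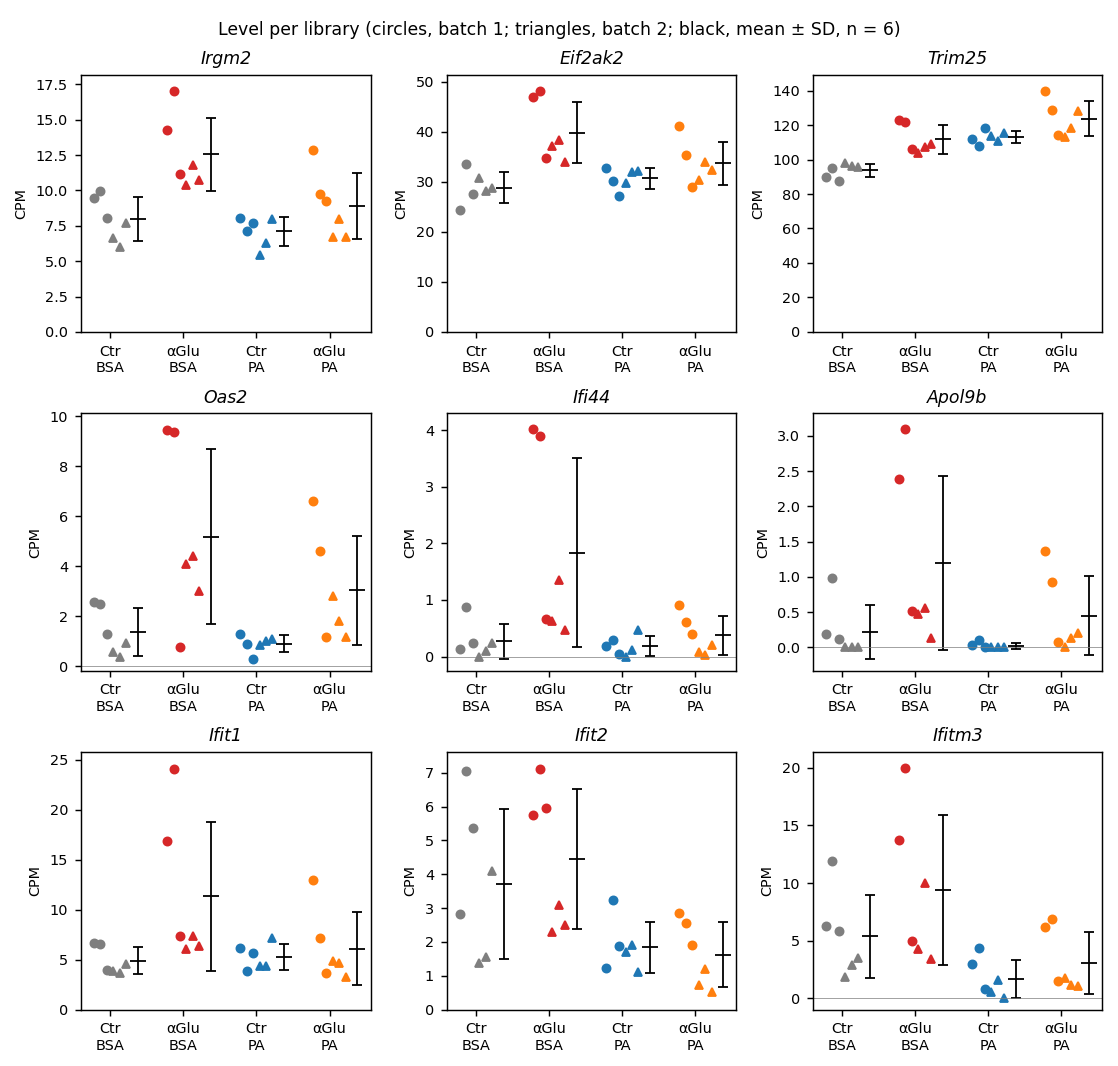
Normalized level in CPM of 9 effector genes in every library, by group, with circles for batch 1, triangles for batch 2 and the group mean ± SD (n = 6) in black. For Irgm2, Eif2ak2 and Trim25 the αGlu BSA points all lie above the Ctr BSA points, while for Oas2, Ifi44, Apol9b and Ifit1 the 2 highest αGlu BSA points, S2 and S6, stand apart.

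Markers of other cells were compared beside these values. The summed level of 14 macrophage markers ran from 80.7 to 394 CPM in Ctr BSA libraries and from 92.1 to 180 CPM under αGlu. Of the 12 that could be tested, 11 were lower under αGlu, 2 by call, with a median log2 fold change of -0.85. The 7 T, B and NK cell markers summed to 2.11 to 4.01 CPM and 1.99 to 3.07 CPM, with Nkg7 at 0 in both groups. Of 4 markers of plasmacytoid dendritic cells, Bst2 is itself an effector gene and was left out of the sum. The other 3, with the defining Siglech at 0 in every group, summed to 51.8 to 73.8 CPM over all groups. Fibroblast markers (8 genes) reached 563 CPM in the Ctr and 1079 CPM in the αGlu group, the latter in S18, and glial markers (7 genes) lay at 10.02 to 55.9 and 6.78 to 17.7 CPM, with all 7 lower under αGlu, 5 by call, and a median log2 of -2.52. The 9 beta-cell markers summed to 83829 to 151648 CPM over the libraries. The part of other cells in the αGlu values was not tested.

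The same comparison was made in PA. Of the 49 genes 46 were higher in αGlu PA than in Ctr PA. Their median log2 fold change was 0.22, against 0.00 for all genes tested. At an unadjusted p below 0.05 there were 13 raised (background 1.02%) and 0 lowered, and 4 passed 2-fold as well (background 0.170%). By edgeR 0 of the 49 passed an adjusted p of 0.05, the smallest being 0.354 (Apol9b), and 0 of all genes passed. DESeq2 passed 1 (2.04%, beside 0.00628% of all genes raised).

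The 4 called genes were Apol9b, Oas2, Oas3 and Apol9a. Oas2 went from 0.279, 0.952 and 1.31 CPM to 1.17, 2.32 and 6.60 CPM, with a small overlap (3.04-fold, edgeR adjusted p = 0.699). Apol9b had 4 reads in all 6 Ctr PA libraries and 80 in αGlu PA, so that its fitted log2 of 4.02 ± 1.00 has no firm size. Oas3 went from 13 reads in all to 44 (3.16-fold, log2 1.66 ± 0.60). Apol9a went from 18 to 77 reads, and its call was lost without S4 or without S11.

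Usp18 was the 1 gene whose groups did not overlap in PA, at 21.2, 24.2 and 25.96 CPM in Ctr and 26.3, 27.6 and 32.3 CPM in αGlu (1.19-fold, log2 0.25 ± 0.10). That is 2.04% of the effector genes, beside 0.0628% of all genes. Irgm2, Irgm1, Trim25, Adar, Ifi27, Xaf1, Oas1a and Rtp4 rose at an unadjusted p below 0.05 with 1.10-fold to 1.86-fold changes. Ifit2 had the lowest value, a log2 of -0.33 ± 0.30, and did not pass.

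Without S4 and S8, 34 of 49 genes were higher, only Apol9b was called or passed an unadjusted p of 0.05, and the median fell to 0.08. By call this 1 gene was 2.04% of the 49, beside 0.129% of all genes raised. At an unadjusted p below 0.05, 174 of all 16227 genes in that fit were raised. The share of the effector genes at that p was thus near the background without these libraries. In batch 2 alone the median was 0.06, and in batch 1 alone 0.37 over the 46 genes that could be fitted in both. Macrophage markers summed to 86.1 to 131 CPM in Ctr PA and 81.7 to 142 CPM in αGlu PA. Gene by gene, all 12 tested were higher in αGlu PA, 2 by call, with a median log2 fold change of 0.79. Of 7 glial markers 6 were lower, 5 by call, with a median of -3.43. The part of these cells in the αGlu values under PA was not tested.

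Over both treatments together, αGlu raised 32 of 49 effector genes at an unadjusted p below 0.05 (background 1.34%), lowered 0, and raised 6 by call (background 0.138%). This pooled contrast uses the same libraries as the comparisons in BSA and PA and adds precision, not independent samples. Here 6 genes passed an adjusted p of 0.05 in edgeR's test, out of 9 raised genes in the whole table (background 0.0565%). They were Irgm2 (1.39-fold, adjusted p = 0.0151), Apol9b (log2 3.35 ± 0.61, adjusted p = 0.0151), Oas2 (3.51-fold, adjusted p = 0.0178), Trim25 (1.14-fold, adjusted p = 0.0184), Ifi27 (1.52-fold, adjusted p = 0.0221) and Adar (1.14-fold, adjusted p = 0.0455). Without S2 and S6 none of the 49 passed, and neither did any of all 16162 genes in that fit. At an unadjusted p below 0.05, 22 of the 49 were then raised (44.9%, beside 1.23% of all genes). Without S4 and S8 there was 1 that passed (2.04%, beside 0.0123% of all genes).

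**Figure D4:**
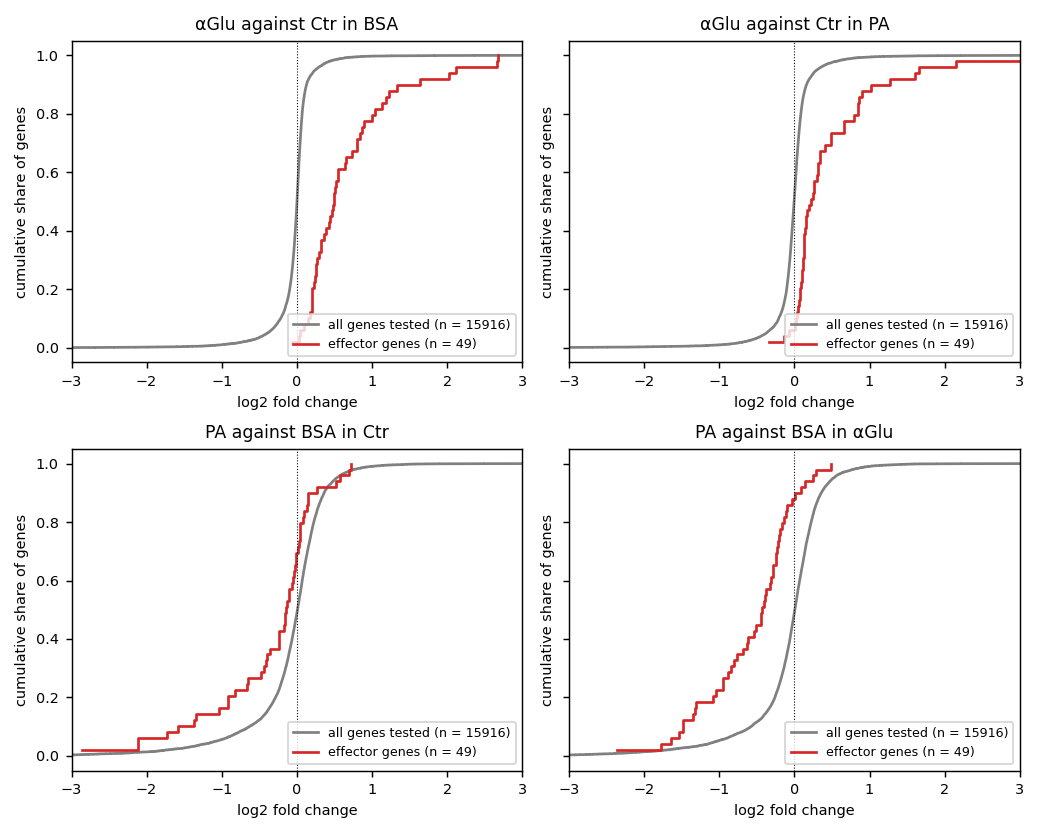
Cumulative share of genes by log2 fold change in 4 comparisons, for all 15916 genes tested (grey) and the 49 effector genes (red). The axis is cut at ±3, where Apol9b in PA lies outside, and the red curve sits right of the grey under αGlu and left of it for most of its length under PA.

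The genes upstream were measured in the same libraries. Of 21 interferon genes in the table, 14 had no read in any library, among them Ifnb1, Ifng, Ifnl2 and Ifnl3. Ifnab had the most, with 78 reads in 24 libraries, spread as 19 in Ctr BSA, 24 in αGlu BSA, 16 in Ctr PA and 19 in αGlu PA. At this depth no ligand could be tested.

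Of 35 tested genes of interferon signalling (receptors, kinases, STATs, IRFs and regulators), 20 were higher in αGlu BSA and 8 passed an unadjusted p of 0.05, with a median log2 of 0.02. Irf7, the regulator that amplifies the response, went from 2.02, 3.47 and 5.14 CPM to 4.26, 6.03 and 14.8 CPM in BSA (2.40-fold). Over both treatments it rose 2.15-fold (edgeR adjusted p = 0.0151), Irf9, which binds DNA together with Stat2, 1.42-fold (adjusted p = 0.0178) and Stat2 1.29-fold (adjusted p = 0.0221). The RNA sensors Ifih1 (MDA5) and Dhx58 (LGP2) rose 1.17-fold and 1.56-fold at an unadjusted p below 0.05, with adjusted p of 0.435 and 0.219. In all 7 of the 35 were raised at the unadjusted p and 1 was lowered, Tlr4, the receptor for lipopolysaccharide (log2 -0.41).

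A further list of 53 tested interferon-induced genes outside the effector group, which shares Ifih1 with the signalling list, had 43 higher over both treatments and 12 raised at an unadjusted p below 0.05, with a median log2 of 0.10. Tgtp1, a GTPase induced by interferon gamma, rose 2.82-fold (edgeR adjusted p = 0.588). Rnf213 rose 1.13-fold, Znfx1 1.08-fold, Mov10 1.074-fold and the immunoproteasome subunit Psmb9 1.17-fold.

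The promoters gave a further way to group the effector genes. In BSA, the 21 genes with an ISRE core had a median log2 fold change of 0.66 under αGlu, with 15 raised at an unadjusted p below 0.05, and the 17 without it 0.24, with 9 raised. In PA the medians were 0.26 and 0.13. The groups overlap widely: Ifi44, Xaf1 and Trim25 rose without a core in their window, and Oas1c has 2 cores and a log2 of 0.02.

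The second question was what PA did. In Ctr cells PA changed many genes. By call 7 of 49 effector genes were lowered (14.3%, background 5.06%) and 0 raised. At an adjusted p below 0.05 there were 8 lowered (16.3%, background 14.5%) and 4 raised (8.16%, background 15.5%). The median log2 fold change was -0.15, with 34 of 49 genes lower, and batch 2 alone gave 0.01.

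The lowered genes led with Ifitm3, which had 1.86, 4.68 and 11.9 CPM in Ctr BSA and 0, 1.19 and 4.34 CPM in Ctr PA (log2 -1.73 ± 0.49, 3.31-fold lower, edgeR adjusted p = 0.0101). Sp100, a component of nuclear bodies that silences viral DNA, had 0.552, 1.01 and 2.91 CPM in BSA and 0, 0.288 and 0.501 CPM in PA, without overlap (log2 -2.12 ± 0.61, adjusted p = 0.0107). It was the 1 effector gene lower without overlap in Ctr, 2.04% beside 2.86% of all genes. Ifi47 fell from 87 reads in all to 20 (log2 -2.11 ± 0.79, adjusted p = 0.0451), and Apol9b from 42 to 4, a call that ended without S5, where 36 of the 42 lay. Oas3, Zbp1 and Gbp3 passed the call but not the adjusted p, and each lost it when 1 of several libraries was left out.

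Fibroblast markers moved with PA too, from 134 to 563 CPM in Ctr BSA to 11.2 to 63.1 CPM in Ctr PA, and the summed macrophage markers had medians of 149 and 95.3 CPM. All 7 tested fibroblast markers were lowered by call, with a median log2 fold change of -2.94. All 12 tested macrophage markers were lower, 9 by call, with a median of -2.26. The part of these cells in the fall of Ifitm3 and Sp100 was not tested.

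PA raised 4 effector genes in Ctr cells. Trim25 went from 87.3, 95.4 and 97.7 CPM to 108, 113 and 118 CPM without overlap (1.205-fold, edgeR adjusted p = 0.000502). Lgals3bp rose from 551, 745 and 999 CPM to 932, 1136 and 1295 CPM (1.44-fold, adjusted p = 0.0036), Rsad2 1.62-fold (adjusted p = 0.02) and Gbp6, with the highest fold of the 49, 1.65-fold (adjusted p = 0.0162). Irgm1, Cmpk2, Ifit2 and Adar fell by less than the call asks, by 0.41, 0.24, 0.92 and 0.18 on the log2 scale, and Cmpk2 thus moved against its neighbour Rsad2.

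**Figure D5:**
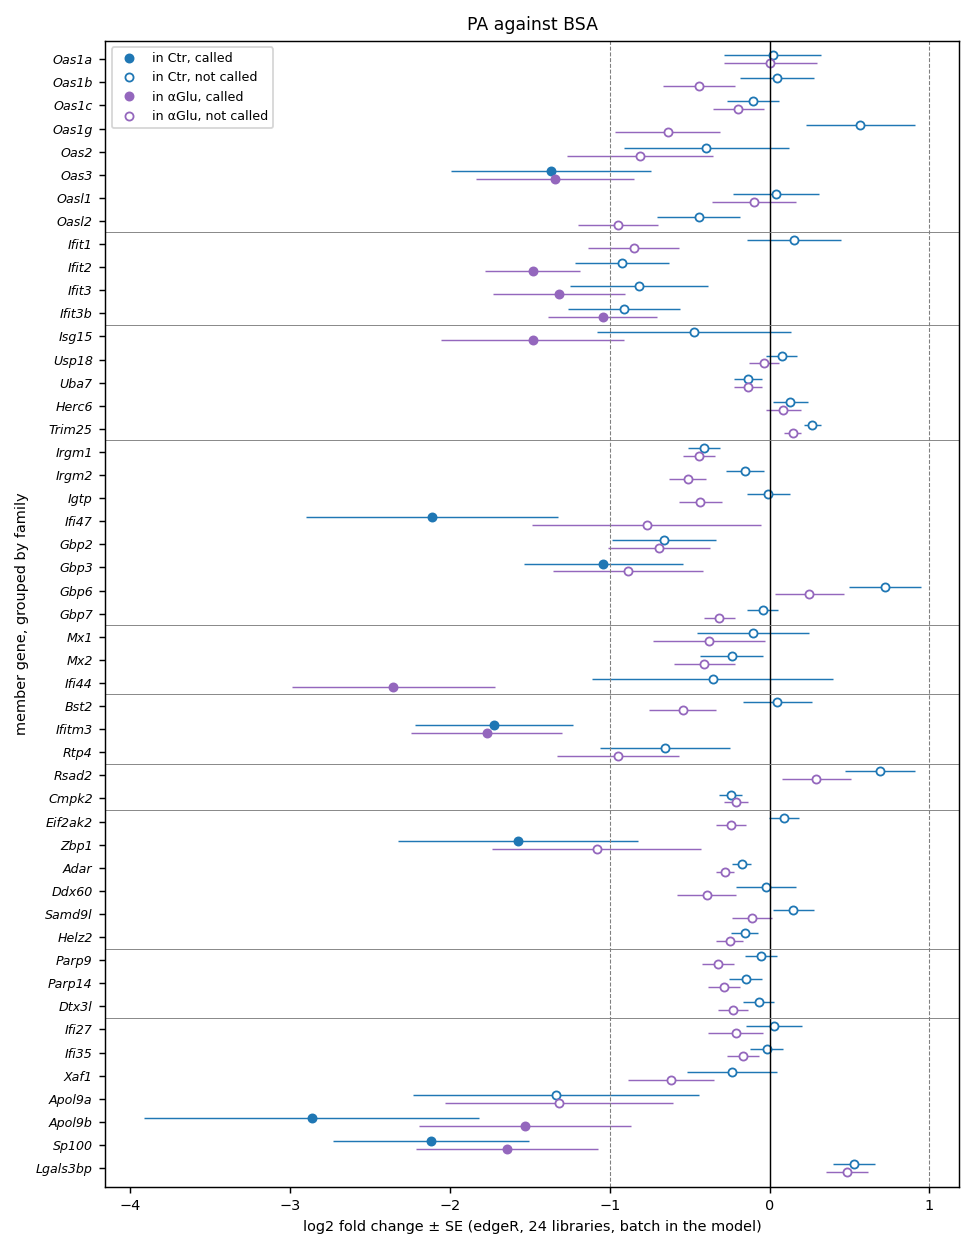
Log2 fold change of PA against BSA for each effector gene, with its SE, in Ctr cells (blue) and in αGlu cells (purple), over 6 libraries a group. Filled points passed 2-fold with an unadjusted p below 0.05, and all of them lie left of 0.

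The same question was asked in αGlu cells. PA gave lower levels for 43 of 49 effector genes, with a median log2 fold change of -0.43, against 0.01 for all genes. By call 9 fell (background 4.74%) and 0 rose, and at an adjusted p below 0.05 there were 18 lowered (background 14.2%) and 2 raised (background 14.4%). None was lower without overlap, beside 3.95% of all genes. This comparison starts from the αGlu BSA libraries, S2 and S6 among them, that also enter the αGlu comparison in BSA, so the values of the 2 are not independent.

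All 4 IFIT genes fell. Ifit2 had 2.29, 4.42 and 7.11 CPM in αGlu BSA and 0.524, 1.55 and 2.87 CPM in αGlu PA (log2 -1.48 ± 0.30, 2.79-fold lower, edgeR adjusted p = 0.000545), and without S2 and S6 its log2 was -1.41. Ifit3 had 2.26, 3.22 and 19.2 CPM against 0.840, 1.60 and 7.30 CPM, and its call ended without S6 (log2 -0.91). Ifit3b fell by 1.05 (its call ended without S6, S8, S12, S16 or S20) and Ifit1 by 0.85 on the log2 scale.

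Ifitm3 fell as in Ctr cells, from 3.41, 7.46 and 19.95 CPM to 1.05, 1.61 and 6.87 CPM (log2 -1.77 ± 0.47, edgeR adjusted p = 0.00623), and remained called without S2 and S6. Ifi44, raised by αGlu in BSA, fell from 302 reads in 6 libraries to 65 (log2 -2.36 ± 0.64, adjusted p = 0.00703). Sp100 fell by 1.64 and Oas3 by 1.35 on the log2 scale, with adjusted p of 0.0327 and 0.0432. Isg15 (adjusted p = 0.0548) and Apol9b (adjusted p = 0.0875) were called at the unadjusted p alone, and both lost the call without S6.

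Smaller falls that passed the adjusted threshold came from Irgm2, Irgm1, Igtp, Gbp7, Oasl2, Adar, Helz2, Parp9, Parp14 and Cmpk2. Lgals3bp (1.40-fold) and Trim25 (1.11-fold, edgeR adjusted p = 0.0423) rose, as they did in Ctr cells. Without S2 and S6 the calls fell from 9 to 3 (Ifit2, Ifitm3 and Ifi44), or 6.12% of the 49, beside 4.54% of all genes. The genes lowered at an adjusted p below 0.05 fell from 18 to 5, or 10.2%, beside 10.6% of all genes, so that without these libraries the share was near the background. The median log2 was then -0.25. Without S4 and S8 there were 16 calls (32.7%, beside 6.24% of all genes) and a median of -0.62.

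Fibroblast markers went from 88.6 to 1079 CPM in αGlu BSA to 12.05 to 172 CPM in αGlu PA, and the summed macrophage markers had medians of 130 and 126 CPM. All 7 tested fibroblast markers were lower, 4 by call, with a median log2 of -2.27. Of 12 macrophage markers 8 were lower, 1 by call, with a median of -0.43. The part of these cells in the PA response was not tested.

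Whether PA acted differently in αGlu and Ctr cells was tested as an interaction. Of the 49 genes 40 had a lower PA response in αGlu cells, with a median difference of -0.16 on the log2 scale, and 5 passed an unadjusted p of 0.05, all lower (background 1.03%). By edgeR 0 passed an adjusted p of 0.05 (smallest 0.999), and DESeq2 likewise passed 0. Of all genes tested, 0 passed by either. Oas1g and Ifit1 passed 2-fold too (2 genes, background 0.226%). The PA response of Oas1g had a log2 of 0.57 in Ctr cells and -0.64 in αGlu cells, a difference of -1.21 ± 0.47 (edgeR adjusted p = 0.999). For Ifit1 the difference was -1.004 ± 0.41, and Eif2ak2, Igtp and Irgm2 had differences of -0.33, -0.43 and -0.36. Without S2 and S6, 0 genes passed the unadjusted p and the median was 0.01. Without S4 and S8, 13 passed it, all lower (26.5%, beside 1.75% of all genes). Of these 3 were called (6.12%, beside 0.733% of all genes), and the median was -0.40. The difference was positive for all 12 macrophage markers, 6 by call, with a median of 1.84, and their part in the values of the effector genes was not tested.

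The batches differed in these genes too. In batch 2, 46 of 49 were lower than in batch 1, with a median log2 of -0.46 against 0.00 for all genes. At an adjusted p below 0.05 there were 33 lowered (background 25.4%) and 0 raised, and 11 were lowered by call (background 5.32%). Xaf1 fell by 1.29, Ifit2 by 1.09, Ifit3 by 1.40, Isg15 by 1.85 and Apol9b by 2.94 on the log2 scale, all with an edgeR adjusted p of 0.000708 or less. Mx1 had the highest value, a log2 of 0.43, and did not pass.

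Without S2 and S6 the median was -0.36 with 23 genes (46.9%) lowered at an adjusted p below 0.05, beside 23.4% of all genes. Acinar markers (7 genes) summed to 2460 to 17183 CPM in batch 1 and 189 to 522 CPM in batch 2. All 7 were lowered by call, with a median log2 of -4.37. Summed macrophage markers, in contrast, had medians of 93.8 and 147 CPM, and 10 of 12 were higher in batch 2, 6 by call, with a median log2 of 1.08. The part of these cells in the batch difference was not tested.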

How the data were processed

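Total RNA from 24 samples was made into stranded mRNA libraries. Reads were processed by the authors in QIAGEN's RNA-seq Analysis Portal 5.1. The submitters' processing notes name build GRCm38. The deposited table gives, per gene and library, raw counts of reads on exons, used for all tests, and TPM, used for levels between genes. Aligner settings were not found in those sources, and 48 columns of RPKM and CPM were not used.

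Totals ran from 18214719 to 35001979 counts per library. Counts were tested in R 4.3.3 with edgeR 4.0.16 (TMM, filterByExpr, quasi-likelihood, group and batch as terms, 24 libraries in 1 fit) over 15916 genes, with Benjamini-Hochberg adjustment. CPM are scaled by TMM. A call needs a change of more than 2-fold and an unadjusted p under 0.05. DESeq2 1.42.0, other scalings, filters, batches and library sets were tried. The code was tested on simulated data. Libraries of a group are independent experiments per the study's methods.

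The members and lists were chosen with earlier results of these data known. Per-library values are given for up to 6 called genes of smallest p in each comparison, for the gene of highest mean TPM in a family and for the extremes of each comparison; up to 6 genes come from each further list. Not every gene taken is printed, and Irgm2, Eif2ak2, Usp18, Isg15, Tlr4, the ISRE stretches shown and genes named for a lost or missing call were added after their values were seen. Positions come from GENCODE M21 and RefSeq GRCm38.p6.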

Additional observations from a re-analysis of the deposited data

Results flagged for a closer look

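Among 196 sets of 6 libraries (49 genes in 4 groups), 17 had 1 library far from the other 5 by Dixon's test. Chance gives about 1 in 20 only for independent sets drawn from 1 population. Each set here spans 2 batches that differ, and the genes move together, so the 17 cannot be read against that rate. Of the genes treated in detail, 8 such values came up, each the highest of its group. Library S5 stood out in Ctr BSA for Ifi44 (0.880 CPM) and Apol9b (0.990 CPM). In Ctr PA, S7 stood out for Ifit2 (3.24 CPM) and Apol9b (0.109 CPM), and S3 for Zbp1 (0.248 CPM) and Apol9a (0.461 CPM). In αGlu PA, S4 stood out for Ifit3 (7.30 CPM) and Ifit3b (4.73 CPM). All of these libraries belong to batch 1.

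The PA response differed between αGlu and Ctr cells at an unadjusted p below 0.05 for Oas1g (-1.21 on the log2 scale), Ifit1 (-1.004), Igtp (-0.43), Irgm2 (-0.36) and Eif2ak2 (-0.33), with an adjusted p of 0.999 for each by edgeR.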

How the results depend on the processing

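No paired analysis was possible because the labels give the groups no replicate number in common and do not say which libraries share an animal. In no comparison did the median log2 fold change of the 49 genes move by more than the spread between Ctr BSA libraries (SD 0.25). For αGlu in PA (0.22), PA in Ctr cells (-0.15) and the interaction (-0.16), the median was itself smaller than this spread. Its complete loss there would not have exceeded the spread. Under αGlu the median fell from 0.49 to 0.25 in BSA without S2 and S6, and from 0.22 to 0.08 in PA without S4 and S8. The SD of 0.25 also holds the difference between the batches. Within batches 1 and 2 the SD of the Ctr BSA libraries was 0.20 and 0.097, and the fall in BSA was larger than either. The median changed sign for PA in Ctr cells in batch 2 alone (0.01) and for the interaction without S2 and S6 (0.01).

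The number of called genes under αGlu in BSA (10) became 4 in batch 2 alone (8.7%, beside 0.191% of all genes raised). It was 4 without S2 and S6 (8.16%, beside 0.142%) and 0 by adjusted p, and ran from 6 (without S6) to 13 with single libraries left out. In PA (4) it became 1 with the compared groups alone (2.38%, beside 0.0665% of all genes raised) and 1 in batch 2 alone (2.17%, beside 0.166%). It was 1 without S4 and S8 (2.04%, beside 0.129%) and 0 by adjusted p, with 3 to 8 under omission of 1 library. Over both treatments (6) it was 10 in batch 1 alone (20.4%, beside 0.229% of all genes raised) and 2 in batch 2 alone (4.35%, beside 0.127%), with 5 to 7 under omission. For PA in Ctr cells (7) it was 3 with the compared groups alone (6.98%, beside 4.25% of all genes lowered) and 4 in batch 2 alone (8.7%, beside 4.41%). It was 4 without S2 and S6 (8.16%, beside 5.08%) and 12 by adjusted p, with 3 (without S5) to 9 under omission. Of the 12, 8 were lowered (16.3%, beside 14.5% of all genes) and 4 raised (8.16%, beside 15.5%). For PA in αGlu cells (9) it was 5 in batch 2 alone (10.9%, beside 5.26% of all genes lowered) and 3 without S2 and S6 (6.12%, beside 4.54%). It was 16 without S4 and S8 (32.7%, beside 6.24%) and 20 by adjusted p, with 5 (without S6) to 16 (without S4). Of the 20, 18 were lowered (36.7%, beside 14.2% of all genes) and 2 raised (4.08%, beside 14.4%). The interaction (2) gave 1 with upper-quartile scaling (2.04%, beside 0.207% of all genes lowered) and 1 with no batch term (2.04%, beside 0.214%). It gave 0 in batch 1 alone, 0 without S2 and S6 and 0 by adjusted p, with 1 to 3 under omission. The batch comparison (11) gave 33 by adjusted p, all lowered (67.3%, beside 25.4% of all genes lowered), and 10 to 13 under omission. The cause of these moves was not tested, and for omission of 1 library the share of all genes is not given.

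Without the batch term 0 of 49 genes passed an adjusted p of 0.05 for αGlu over both treatments, as did 0 of all 15916 genes. DESeq2 passed 15 (30.6%, beside 0.132% of all genes raised) and the fit without a filter 12 (24.5%, beside 0.0592%). Among the called genes named, 237 of 278 values under the other settings kept their call and 0 changed sign. Values that changed sign belonged to genes with no call: Ifit2 under αGlu in PA (0.21 in batch 1 alone), Ifit2 over both treatments (0.040 with no batch term, 0.25 in batch 1 alone, and -0.15 to 0.054 under omission) and Ifi47 under αGlu in BSA (-0.35 to 0.30 under omission). Omission of S2 and S6 and of S4 and S8 was chosen after seeing the data. Apol9b, Oas3, Zbp1 and Ifi47, with few reads in some groups, are limited by depth.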
